A study of Mus musculus with 6 samples.

Results

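Among the genes of the interleukin-1 (IL-1) family and the inflammasome, the alarmin Il33 showed the clearest age difference in mouse aorta. It lay between 7.64 and 13.4 CPM in the 3 libraries from 6-week-old mice and between 14.2 and 82.3 CPM in the 3 libraries from 6-month-old mice (CPM, counts set to the same library size, with TMM factors). The scarce transcripts Il1b, Il1rl1 and Nlrp3 were also higher in each 6-month library than in each 6-week library, whereas Il1r1, the signalling receptor of IL-1, was at nearly the same level at both ages. None of the 10 genes passed an adjusted p of 0.05 in the main test, edgeR's quasi-likelihood test adjusted over all 16612 genes tested.

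The 10 genes were picked by their symbols from the 55335 genes of the count table. They are the ligands Il1b, Il33 and Il18, the secreted inhibitors Il1rn and Il18bp, the receptor subunits Il1r1, Il1rap and Il1rl1, and the inflammasome genes Nlrp3 and Casp1. After a filter on low counts, 7 of the 10 could be tested, while Il1rn, Il1rl1 and Nlrp3 were too scarce. Il1b passed the filter only through the 6-month libraries, in which it was high.

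RNA was taken from aorta of wild-type C57BL/6 mice (c57b6l in the labels), described as male, at 6 weeks (young) or 6 months (aged), with 3 libraries per age and no treatment in either group. Mice of 6 months are mature adults. The labels number the libraries of an age without naming the animal, so p-values measure the spread between these libraries, which may be partly technical. According to the study's methods, the fat surrounding the vessel was dissected under a microscope and a piece of vessel was taken from each mouse.

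The counted reads summed to between 31049632 and 45832185 per library. Young replicate 1 stood apart from the label male, since it held 14806 counts of Xist, the X-inactivation RNA of female cells, against 7 to 24 elsewhere, and 53 counts of the Y-linked Ddx3y against 1488 to 2117 elsewhere. Aged replicate 2 lay beside the young libraries on the first principal component, at -13.35, where the other aged libraries were at 53.82 and 62.69 and the young ones between -52.19 and -10.28. Values are therefore given below also without these libraries where that changes a call of a gene named here. Summed smooth muscle markers, which define the main cell type of the aortic wall, were abundant in every library. They summed to between 32350 and 40280 CPM in young libraries and to 33400, 29190 and 28080 CPM in aged replicates 1, 2 and 3. All 8 markers were tested, and 0 had a log2 fold change above 0 (median -0.32). In edgeR, 4 were lower at an unadjusted p below 0.05 (Myh11, Smtn, Lmod1 and Myocd), and 0 passed the adjusted threshold. Adipocyte markers were detected in all libraries despite this dissection and summed to between 538 and 2091 CPM in young libraries and to 789, 3713 and 1115 CPM in aged replicates 1, 2 and 3.

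IL-1 family cytokines act on receptors made of a specific chain and, for IL-1 and IL-33, the shared accessory chain encoded by Il1rap. The receptors recruit MyD88 and IRAK kinases and activate NF-kappa B. IL-1 beta and IL-18 are made as inactive precursors that caspase-1 cuts once an inflammasome, such as that formed by NLRP3, has assembled, mostly in macrophages and other myeloid cells. IL-33 is held in the nucleus of stromal and endothelial cells, is released upon damage, and acts through ST2, the product of Il1rl1, on mast cells, type 2 innate lymphoid cells and regulatory T cells. In atherosclerosis and other vascular disease, IL-1 beta is a known driver of inflammation. Transcript levels do not show processing or release of these proteins.

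**Figure D1:**
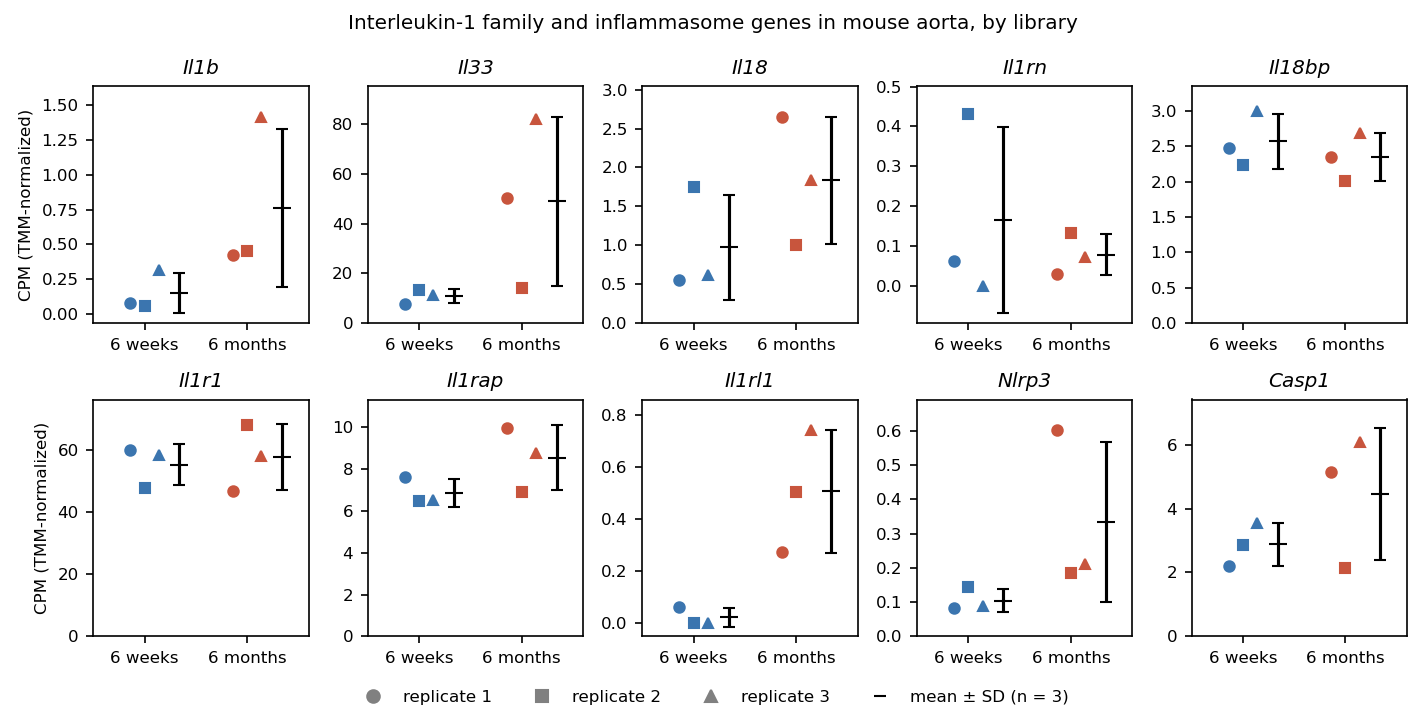
TMM-normalized CPM of the 10 genes in each library, 1 panel per gene with its own linear axis; blue marks 6 weeks, red marks 6 months, symbols mark the replicate and black bars give the mean ± SD (n = 3). The groups do not overlap for Il1b, Il33, Il1rl1 and Nlrp3, and aged replicate 2 (red square) is the lowest aged library for Il33, Il18, Il18bp, Il1rap, Nlrp3 and Casp1.

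Il33 (ENSMUSG00000024810) lies on chromosome 19 of GRCm38 from 29925114 to 29960718, on the plus strand. Young replicates 1, 2 and 3 held 370, 466 and 388 counts of it, and the aged ones 1674, 536 and 2325. As CPM, these were 7.64, 13.4 and 11.3 in young and 50.4, 14.2 and 82.3 in aged aorta. Aged replicates 1 and 3 were far above all young libraries, whereas aged replicate 2 exceeded young replicate 2 only slightly. The mean was 10.8 ± 2.91 CPM (SD, n = 3) in young and 49.0 ± 34.1 CPM (SD, n = 3) in aged aorta, a log2 fold change of 2.18 (SE 0.58, 95% interval 0.82 to 3.55, unadjusted p = 0.00669, edgeR adjusted p = 0.377). The difference was positive in all 15 fits tried, and its adjusted p lay between 0.00596 and 0.765 over them. It passed the threshold with DESeq2 (adjusted p = 0.00596) and with edgeR without aged replicate 2 (log2 fold change 2.62, adjusted p = 0.0344). Without both aged replicate 2 and young replicate 1 it did not (2.43, edgeR adjusted p = 0.067).

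The number of genes called depended on the fit. In the main fit, edgeR called 0 of the 16612 genes tested (0%), with a lowest adjusted p of 0.189, although 1723 genes had an unadjusted p below 0.05. Of all genes tested, 5.56% were higher in aged aorta at an unadjusted p below 0.05 and 4.82% were lower. Without aged replicate 2, edgeR called 110 genes, and 0.583% of 17147 tested were called higher. DESeq2 called 1.48% of 14955 genes higher and 0.782% lower, 338 in all, and limma on log2 FPKM called 0. At an unadjusted p below 0.05, Il33 and Il1b were higher in the main fit and no member was lower, but Il1b was tested only because it was high in the aged libraries. With at least 10 counts in every library, Il33 was at that level among 6 members tested. As a description, the log2 fold change was above 0 in 6 of the 7 members that passed the filter, with a median of 0.63, where 52.1% of all genes were above 0 and the median was 0.02.

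Fibroblasts and endothelial cells are the cells of the vessel wall known to hold IL-33, and their markers varied between the aged libraries as well. Summed over 8 fibroblast markers, CPM was between 3687 and 5738 in young libraries and was 9869, 3315 and 7132 in aged replicates 1, 2 and 3. All 8 markers were tested, of which 7 had a log2 fold change above 0 (median 1.39) and 5 an unadjusted p below 0.05. In the fits that called Il33, fibroblast markers were called higher as well, namely Pdgfra, Dcn, Pi16 and Dpt in edgeR without aged replicate 2 (adjusted p between 0.0272 and 0.0488) and Pdgfra, Dpep1 and Dpt with DESeq2. The 8 endothelial markers summed to between 440 and 535 CPM in young libraries and to 416, 386 and 1652 CPM in aged replicates 1, 2 and 3. Aged replicate 3, the library with most Il33, thus also stood out for endothelial markers, and aged replicate 1 for fibroblast markers. In bulk tissue, a larger number of cells of a type and more RNA per cell cannot be told apart.

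Set against the mean log2 CPM of the fibroblast markers, Il33 lay at -4.62, -4.08 and -4.56 in young and at -4.00, -3.72 and -2.79 in aged replicates 1, 2 and 3. Each aged value was above each young one, the closest being -4.00 and -4.08. The means differed by 0.92 on the log2 scale, where Il33 and the markers each have a prior count of 2. This difference depends on the markers taken. Col1a1 and Col1a2 had log2 fold changes of 0.17 and -0.05, which lower the rise of the marker mean. The other markers lay between 1.31 (Pdgfra) and 2.15 (Dpep1), beside 2.18 for Il33. Against the endothelial markers, the values were -2.51, -1.32 and -1.33 in young and 0.55, -1.25 and -0.23 in aged aorta, which did not overlap either (difference 1.41). These ratios were chosen after the values were seen and carry no test.

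**Figure D2:**
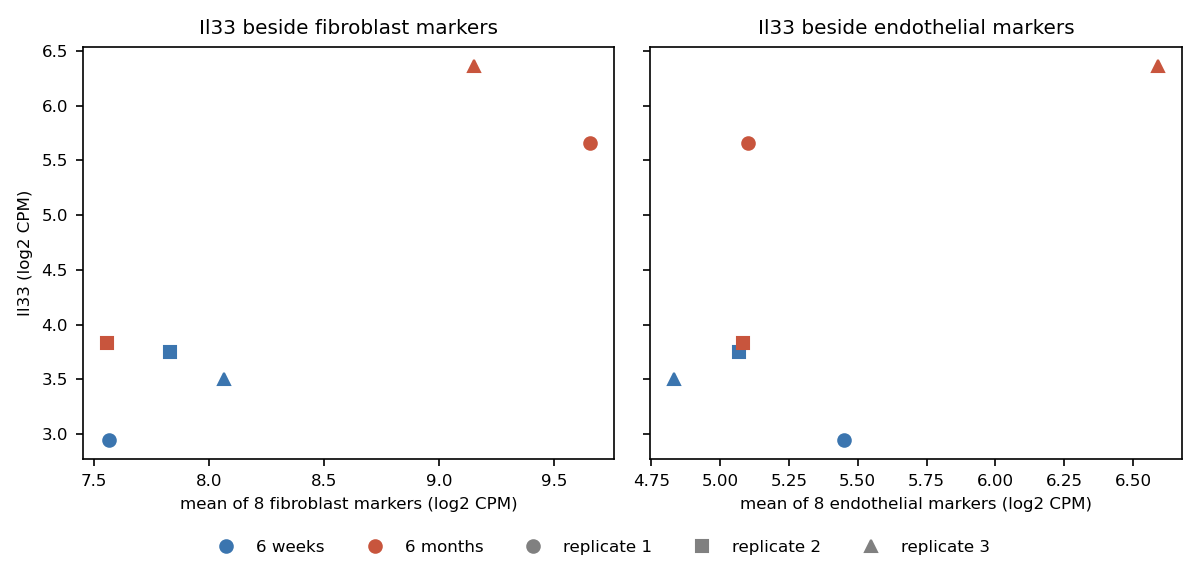
Log2 CPM of Il33 in each of the 6 libraries against the mean log2 CPM of 8 fibroblast markers (left) and 8 endothelial markers (right); colours mark age and symbols the replicate. Aged replicates 1 and 3 are high in Il33, the former at the highest fibroblast level and the latter at the highest endothelial level, while aged replicate 2 lies beside the young libraries.

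The sequence upstream of Il33 is shown because Il33, Il1rl1 and Il1b had the highest ratios of aged to young mean CPM among the 10 genes (4.54, 24.5 and 4.97, respectively). RefSeq (GRCm38.p6) gives 2 start sites for Il33, and the 250 bases before each are printed on the gene's strand, from 5′ to 3′. Capitals mark matches to TATAAA on the sense strand or to TTGCNNAA, a core C/EBP motif, on either strand. The first region is chr19:29924863-29925112 and the other is chr19:29945540-29945789, both on the plus strand.
Il33 start 1: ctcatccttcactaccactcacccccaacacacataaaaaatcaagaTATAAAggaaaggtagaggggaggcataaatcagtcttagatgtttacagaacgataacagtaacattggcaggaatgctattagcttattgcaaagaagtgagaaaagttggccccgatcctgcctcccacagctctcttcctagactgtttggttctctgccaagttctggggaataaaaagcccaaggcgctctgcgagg
Il33 start 2: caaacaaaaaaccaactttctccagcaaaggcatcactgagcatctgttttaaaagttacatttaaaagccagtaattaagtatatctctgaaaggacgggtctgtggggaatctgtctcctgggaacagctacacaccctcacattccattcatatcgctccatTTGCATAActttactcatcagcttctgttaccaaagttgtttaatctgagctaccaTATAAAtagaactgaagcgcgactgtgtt

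Counting from the start site, TATAAA lay at -203 to -198 before start 1 and at -29 to -24 before start 2, and TTGCNNAA at -85 to -78 before start 2. Of 32851 mouse regions of the same length, 7.59% held TATAAA and 9.56% held TTGCNNAA. The motif TGANTCA of AP-1 was in 6.75% of them and that of NF-kappa B in 7.25%, both strands counted. The counts are summed over a gene, so they do not show which start was used. All 10 genes had an entry, 16 start sites in all.

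Il1rl1 (ENSMUSG00000026069, chromosome 1 of GRCm38, 40429570 to 40465415, plus strand) encodes ST2, the receptor chain specific for IL-33. Young replicates 1, 2 and 3 held 3, 0 and 0 counts of it, and the aged ones 9, 19 and 21. Each aged library was above each young one, at 0.271, 0.504 and 0.743 CPM against at most 0.0619. Summed over the libraries, these were 3 counts in young and 49 in aged aorta, a ratio of 19.4 per effective library size with a 95% counting interval of 6.25 to 97.1, which covers counting error only. The gene did not pass the filter. With no filter its unadjusted p was 0.0112 (edgeR adjusted p = 0.529), and in the 5 fits that tested it the adjusted p was between 0.37 and 0.765. RefSeq gives 2 starts for this gene as well, and transcripts for the membrane-bound and the soluble form of ST2 cannot be separated in gene counts.

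Markers of the cells that carry ST2 were scarce. Mast cell markers summed to between 4.63 and 7.99 CPM in young and to 6.98, 14.6 and 14.2 CPM in aged replicates 1, 2 and 3. Kit was the largest part of this sum in young replicates 2 and 3 and aged replicate 2. It was at 2.15, 4.68 and 3.70 CPM in young and 0.993, 6.97 and 1.20 CPM in aged replicates 1, 2 and 3 (log2 fold change -0.19). In the other libraries Mcpt4 was the largest part. It was at 2.37, 0.747 and 0.466 CPM in young and 2.05, 3.05 and 5.45 CPM in aged replicates 1, 2 and 3. Its groups overlapped (log2 fold change 1.54, edgeR unadjusted p = 0.0558). Of the 8 mast cell genes 5 were tested, 4 of these had a log2 fold change above 0 (median 1.89), and none had an unadjusted p below 0.05. Cpa3, Cma1 and Tpsb2 had 0 counts in part of the young libraries and passed the filter only through the aged ones, in which they were high. The number above 0 and the median are therefore given as a description. In young aorta, Cma1 and Tpsb2 were counted only in replicate 1 (63 and 61 counts), the library with high Xist. Within the 12 markers of T cells, NK cells and type 2 innate lymphoid cells, Ncr1, Klrb1c and Areg had 0 counts in all libraries, and the sum was 2.23 to 6.12 CPM in young and 2.57 to 4.57 CPM in aged aorta. Their part in the Il1rl1 counts was not tested.

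The 250 bases before the starts of Il1rl1, at chr1:40429320-40429569 and chr1:40439379-40439628 on the plus strand, are shown with the same capitals. The match to TTGCNNAA lay at -34 to -27 before start 1.
Il1rl1 start 1: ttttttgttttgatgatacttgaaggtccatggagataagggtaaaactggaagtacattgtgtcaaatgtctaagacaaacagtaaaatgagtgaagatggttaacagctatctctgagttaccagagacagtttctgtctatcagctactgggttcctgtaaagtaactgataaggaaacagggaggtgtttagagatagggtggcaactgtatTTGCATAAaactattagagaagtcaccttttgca
Il1rl1 start 2: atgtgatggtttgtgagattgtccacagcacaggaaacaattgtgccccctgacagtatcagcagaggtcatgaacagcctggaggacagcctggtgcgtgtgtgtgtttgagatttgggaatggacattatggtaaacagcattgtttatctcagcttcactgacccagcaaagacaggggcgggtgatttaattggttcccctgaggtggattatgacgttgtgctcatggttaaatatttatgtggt

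Ligand and receptor were then set side by side. The difference of Il33 and Il1rl1 in log2 CPM was 6.04, 7.92 and 7.68 in young and 7.27, 4.67 and 6.69 in aged replicates 1, 2 and 3. The groups overlapped, and the aged mean minus the young mean was -1.002 (p = 0.5 by exact permutation, two-sided, with 0.1 as the lowest p possible for 3 against 3). This direction turned on the scale, being 1.03 with log2(FPKM + 0.1), where the near-zero values of Il1rl1 are held at the pseudocount. On the log2 CPM scale they are held by the prior count in the same way. With a prior count of 0.5 instead of 2, the difference was -2.41.

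Il1b (ENSMUSG00000027398) encodes IL-1 beta and lies on chromosome 2 of GRCm38 from 129364570 to 129371139, on the minus strand. Its counts were 4, 2 and 11 in young and 14, 17 and 40 in aged replicates 1, 2 and 3. As CPM, these were 0.0826, 0.0575 and 0.321 in young and 0.421, 0.451 and 1.42 in aged aorta. No aged library fell among the young ones, though aged replicates 1 and 2 were close to young replicate 3. The means were 0.154 ± 0.145 and 0.762 ± 0.566 CPM (SD, n = 3 each), giving a log2 fold change of 2.30 (SE 0.89, 95% interval 0.21 to 4.39, unadjusted p = 0.0354, edgeR adjusted p = 0.448). The summed counts of 17 and 71 gave a ratio of 4.95 with a 95% counting interval of 2.88 to 8.96. The difference was positive in 13 of the 13 fits that gave it an adjusted p, with values from 0.297 to 0.765. DESeq2 tested it as well (log2 fold change 2.33) but gave no adjusted p. Its unadjusted p in edgeR was above 0.05 without young replicate 1 (0.107), young replicate 2 (0.0973) or aged replicate 3 (0.184, log2 fold change 1.51).

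The region chr2:129371140-129371389 before the single RefSeq start of Il1b is on the minus strand and is printed in the direction of the gene. It held TATAAA at -31 to -26.
Il1b start 1: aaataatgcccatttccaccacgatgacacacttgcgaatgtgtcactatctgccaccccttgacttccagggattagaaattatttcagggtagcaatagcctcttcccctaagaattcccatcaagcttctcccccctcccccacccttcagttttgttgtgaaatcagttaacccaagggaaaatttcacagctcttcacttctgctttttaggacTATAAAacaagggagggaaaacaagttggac

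Macrophages, the main source of IL-1 beta, were represented by 10 markers, all tested and all with a log2 fold change above 0 (median 1.39), 9 of them at an unadjusted p below 0.05. None passed the adjusted threshold in the main fit, while Csf1r, Mrc1 and C1qa were called higher by edgeR without aged replicate 2, and Csf1r, Mrc1, C1qa, C1qb and Cd163 by DESeq2. Their sum was 214 to 239 CPM in young and 559, 311 and 415 CPM in aged replicates 1, 2 and 3. Relative to the mean log2 CPM of these markers, Il1b lay at -6.52, -6.61 and -4.86 in young and at -6.29, -4.98 and -4.32 in aged aorta. These values overlapped, with a difference of 0.80. Neutrophil markers were scarce, at 2.53 to 5.30 CPM in young and 5.39 to 9.06 CPM in aged libraries. Of their 10 genes 5 were tested, all with a log2 fold change above 0 (median 1.22), and Csf3r had an unadjusted p of 0.0397 without overlap. Csf3r had at least 10 counts in every library. S100a9 did not overlap either, but it passed the filter only through the aged libraries, in which it was high. S100a8 also had fewer than 10 counts in part of the young libraries. The number of these genes above 0 and their median are therefore given as a description. Ngp had 0 counts in each young library and 23, 10 and 20 in aged replicates 1, 2 and 3. The defining genes Ly6g and Mmp8 had 0 counts in all 6 libraries. The part of these cells in the Il1b counts was not tested.

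Il1rn (ENSMUSG00000026981, chromosome 2 of GRCm38, 24336853 to 24351494, plus strand) encodes the antagonist that occupies the IL-1 receptor without signalling. It had 3, 15 and 0 counts in young and 1, 5 and 2 in aged replicates 1, 2 and 3. Of its 18 young counts, 15 came from replicate 2, and the groups overlapped. The ratio of aged to young counts was 0.527 with a 95% counting interval of 0.198 to 1.27. A difference of this gene was thus not detectable at this depth (with no filter, edgeR adjusted p = 0.834). The log2 CPM of Il1b minus that of Il1rn was 0.23, -2.11 and 2.76 in young and 2.48, 1.43 and 3.54 in aged replicates 1, 2 and 3. The aged mean was higher by 2.19, but the groups overlapped (p = 0.3 by exact permutation, two-sided).

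Il18 (ENSMUSG00000039217, chromosome 9 of GRCm38, 50554827 to 50581840, plus strand), the other cytokine activated by caspase-1, had 27, 61 and 21 counts in young and 88, 38 and 52 in aged replicates 1, 2 and 3. As CPM, these were 0.557, 1.75 and 0.612 in young and 2.65, 1.01 and 1.84 in aged aorta. Young replicate 2 lay within the aged range. The means of 0.974 ± 0.675 and 1.83 ± 0.82 CPM (SD, n = 3 each) corresponded to a log2 fold change of 0.91 with a 95% interval of -0.53 to 2.35 (edgeR adjusted p = 0.625), and it ranged from 0.55 without aged replicate 1 to 1.65 without young replicate 2. Its value relative to the macrophage markers overlapped between the ages as well, with a difference of -0.21 on the log2 scale.

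Il18bp (ENSMUSG00000070427, chromosome 7 of GRCm38, 102014885 to 102018690, minus strand) encodes the secreted protein that neutralizes IL-18. It was at 2.48, 2.24 and 3.001 CPM in young and 2.35, 2.01 and 2.69 CPM in aged replicates 1, 2 and 3. The log2 fold change was -0.13 with a 95% interval of -0.85 to 0.59 (edgeR adjusted p = 0.895). It shares 80 exonic bases with Numa1 on the opposite strand, which had 2854 to 6294 counts, and whether counting used strand is not given in the sources used here, so some of its 76 to 120 counts may belong to Numa1. Il18 minus Il18bp in log2 CPM was -2.05, -0.35 and -2.20 in young and 0.17, -0.96 and -0.53 in aged aorta, which overlapped (difference 1.09, p = 0.3 by exact permutation, two-sided).

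Il1r1 (ENSMUSG00000026072, chromosome 1 of GRCm38, 40225080 to 40317257, plus strand), the chain that binds IL-1, was abundantly transcribed. It was at 60.04, 47.9 and 58.4 CPM in young and at 46.8, 68.1 and 58.3 CPM in aged replicates 1, 2 and 3. The lowest and the highest library were both aged. Its log2 fold change was 0.06 with a 95% interval of -0.38 to 0.50 (edgeR adjusted p = 0.927), and the sign changed between fits, with 10 of 15 above 0 and a range of -0.17 to 0.19. Aged replicate 2, lowest of the aged libraries in Il33 and Casp1, was the highest in Il1r1.

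Il1rap (ENSMUSG00000022514, chromosome 16 of GRCm38, 26581704 to 26730117, plus strand), the accessory chain of the IL-1 and IL-33 receptors, was at 7.64, 6.47 and 6.53 CPM in young and at 9.99, 6.89 and 8.78 CPM in aged replicates 1, 2 and 3. Aged replicate 2 lay within the young range. The log2 fold change of 0.31 had a 95% interval of -0.22 to 0.85 (edgeR adjusted p = 0.646), and was 0.19 without aged replicate 1.

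Nlrp3 (ENSMUSG00000032691, chromosome 11 of GRCm38, 59541568 to 59566956, plus strand), the sensor of the inflammasome, had 4, 5 and 3 counts in young and 20, 7 and 6 counts in aged replicates 1, 2 and 3. At 0.0826, 0.144 and 0.0874 CPM against 0.602, 0.186 and 0.212 CPM, the groups did not overlap, yet most of the difference came from aged replicate 1. The ratio of summed counts was 3.26 with a 95% counting interval of 1.64 to 6.93. The gene did not pass the filter, and without a filter the edgeR adjusted p was 0.627. Without aged replicate 1 the difference of the mean CPM was 0.0944 instead of 0.228.

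Casp1 (ENSMUSG00000025888, chromosome 9 of GRCm38, 5298517 to 5307265, plus strand), the protease of the inflammasome, was at 2.21, 2.87 and 3.55 CPM in young and at 5.15, 2.15 and 6.09 CPM in aged replicates 1, 2 and 3. Aged replicates 1 and 3 were above all young libraries, and aged replicate 2 was below them. The means were 2.88 ± 0.673 and 4.46 ± 2.06 CPM (SD, n = 3 each), giving a log2 fold change of 0.63 with a 95% interval of -0.38 to 1.64 (edgeR adjusted p = 0.632). Without aged replicate 2 it was 0.97 (edgeR adjusted p = 0.285), and without aged replicate 3 it was 0.34 (edgeR adjusted p = 0.857). Relative to the mean of the macrophage markers, Casp1 differed by -0.65 on the log2 scale, and the groups overlapped.

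Over the 10 genes, 4 had their lowest aged library above their highest young library, namely Il1b, Il33, Il1rl1 and Nlrp3, and none had the opposite pattern. Among all genes with at least 1 count, the former pattern was found for 5.87% of 27806. Among the 7 members tested it held for Il33 and for Il1b, which was tested only through its aged libraries, where 7.74% of all tested genes were higher and 8.78% lower without overlap. Of these 4 genes, 3 had no more than 11 counts in any young library.

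Levels can be compared between genes on the FPKM scale, which divides by gene length. In young aorta Il1r1 was highest at 8.49 ± 0.988 FPKM (SD, n = 3), followed by Il33 at 3.65 ± 1.04 FPKM, and these ranges did not overlap. Casp1, Il18 and Il18bp came next at 0.894, 0.888 and 0.823 FPKM, and neighbours in this order overlapped. Il1rap followed at 0.586 FPKM and Il1b at 0.0698 FPKM, each below the range of the gene before it. Il1rn, at 0.0261 FPKM, overlapped with both Il1b before it and Nlrp3 after it (0.0205 FPKM), and Il1rl1 was lowest at 0.00191 FPKM, below the range of Nlrp3.

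In aged aorta Il33 was first at 14.02 ± 9.42 FPKM (SD, n = 3) and Il1r1 second at 7.59 ± 1.45 FPKM, with overlapping ranges, since Il33 was only 4.20 FPKM in aged replicate 2. Il18, Casp1, Il18bp, Il1rap and Il1b followed at 1.44, 1.17, 0.639, 0.625 and 0.319 FPKM, each overlapping with the next. Nlrp3 and Il1rl1, at 0.0649 and 0.0574 FPKM, overlapped with each other, and Il1rn was last at 0.0104 FPKM. In both groups the receptor chain Il1r1 thus exceeded its ligand Il1b, and the ligand Il33 exceeded its receptor Il1rl1, in every library.

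**Figure D3:**
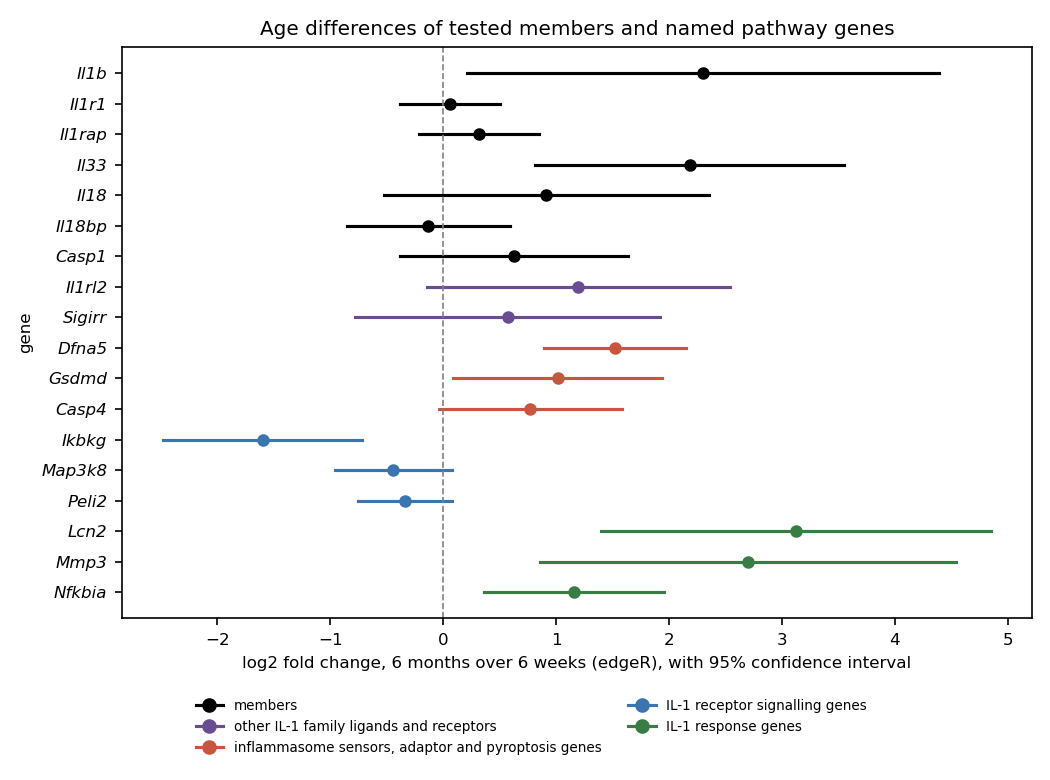
Log2 fold change of 6 months over 6 weeks (edgeR, 3 against 3 libraries) with its 95% confidence interval for the 7 members tested and 11 genes of the pathway lists. The intervals of Il1b and Il33 lie above 0 among the members, and so do those of Dfna5, Gsdmd, Lcn2, Mmp3 and Nfkbia, while that of Ikbkg lies below 0; none passes an adjusted p of 0.05.

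Other IL-1 family ligands and receptors were nearly silent. Of 13 genes 6 had 0 counts in all libraries, namely Il1rapl2, Il1f6, Il1f8, Il1f9, Il1f5 and Il1f10, the last 5 of which include the genes of the IL-36 cytokines and their antagonist. Il1a, the gene of IL-1 alpha, had 2 counts in aged replicate 2 and 0 elsewhere. Only Il1rl2, the IL-36 receptor, and Sigirr, an inhibitory receptor, could be tested. Il1rl2 was at 0.771 ± 0.247 and 1.78 ± 1.15 CPM (SD, n = 3 each) in young and aged aorta, without overlap (log2 fold change 1.20, edgeR adjusted p = 0.522). Its difference rested largely on aged replicate 1, at 3.10 CPM against 1.06 and 1.17 in the others, and was 0.53 without that library. Sigirr had a log2 fold change of 0.57 (edgeR adjusted p = 0.743), which was 0.99 without aged replicate 2 and -0.083 without aged replicate 3. The decoy receptor Il1r2, chosen for mention after its values were seen, had 0 counts in each young library and 3, 18 and 4 counts in aged replicates 1, 2 and 3.

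Inflammasome sensors, the adaptor and pyroptosis genes were mostly detected, with 17 of 23 tested and 15 of these at a log2 fold change above 0 (median 0.49). None passed the adjusted threshold, and 2 were higher at an unadjusted p below 0.05. Of all tested genes, 52.1% had a log2 fold change above 0. Naip5 (log2 fold change 1.45) had 26, 8 and 7 counts in young and 16, 15 and 52 in aged replicates 1, 2 and 3. It passed the filter only through the aged libraries. The number of genes of this list above 0 and their median are therefore given as a description. Dfna5, the older symbol of the pore-forming gasdermin E gene, was at 7.12, 4.20 and 4.40 CPM in young and 16.7, 13.4 and 15.1 CPM in aged replicates 1, 2 and 3. Aged replicate 2 was here well above the young libraries, unlike for Casp1. The log2 fold change of Dfna5 was 1.52 (SE 0.27, edgeR adjusted p = 0.306, DESeq2 adjusted p = 0.00019).

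Gsdmd, whose product is cut by caspase-1 and forms the pore through which IL-1 beta leaves the cell, was at 7.26 ± 0.693 and 14.7 ± 7.05 CPM (SD, n = 3 each). Aged replicate 2 lay at 6.63 CPM among the young libraries. Its log2 fold change was 1.02 (edgeR adjusted p = 0.448) and 1.37 without aged replicate 2 (edgeR adjusted p = 0.0488). Casp4, the caspase of the non-canonical inflammasome, differed by 0.77 (edgeR adjusted p = 0.5) and by 0.47 without aged replicate 1, and the adaptor Pycard by 0.59 (edgeR adjusted p = 0.682).

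Genes of IL-1 receptor signalling were all tested, and 5 of 20 had a log2 fold change above 0 (median -0.13), where 52.1% of all tested genes were. Ikbkg, which encodes the regulatory subunit NEMO of the IKK complex, was at 18.2, 9.69 and 16.2 CPM in young and 4.60, 3.05 and 6.94 CPM in aged replicates 1, 2 and 3. Each aged library was below each young one, with a log2 fold change of -1.60 (SE 0.37, edgeR adjusted p = 0.372, DESeq2 adjusted p = 0.00724). It was the only gene of the list at an unadjusted p below 0.05. Map3k8, a kinase of the ERK branch, and Peli2, a ubiquitin ligase acting on IRAK, had log2 fold changes of -0.44 and -0.34 (edgeR adjusted p = 0.533 and 0.544), or -0.28 without young replicate 2 and -0.22 without aged replicate 1, respectively. Myd88, the adaptor, was at 19.9 ± 4.71 and 21.7 ± 2.9 CPM (SD, n = 3 each).

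Among 22 genes known to respond to IL-1, 15 were tested, 11 of which had a log2 fold change above 0 (median 1.25). None passed the adjusted threshold of edgeR, while 7 were higher (Mmp3, Nfkbia, Ptgs2, Ptges, Icam1, Vcam1 and, tested only through its aged libraries, Lcn2) and 1 was lower (Nfkbiz) at an unadjusted p below 0.05. Of all tested genes, 52.1% were above 0, 5.56% were higher at that p and 4.82% were lower. Lcn2, Ccl2, Ccl7 and Sele had fewer than 10 counts in part of the young libraries. The number of response genes above 0 and their median are therefore given as a description. Lcn2, an iron-binding acute phase protein, had 6, 2 and 12 counts in young and 74, 41 and 38 counts in aged replicates 1, 2 and 3, a log2 fold change of 3.12 (edgeR adjusted p = 0.372, DESeq2 adjusted p = 0.00663). It passed the filter only through the aged libraries, in which it was high, so its call is given as a description. Mmp3, a matrix protease of fibroblasts, was at 24.1, 13.2 and 34.8 CPM in young and 313, 30.7 and 125 CPM in aged replicates 1, 2 and 3. Aged replicate 2 was again within the young range, and the fibroblast markers had the same order of the aged libraries (log2 fold change 2.70, edgeR adjusted p = 0.382, DESeq2 adjusted p = 0.00447). Without aged replicate 1 its log2 fold change was 1.70 (edgeR adjusted p = 0.567). Nfkbia, the inhibitor of NF-kappa B that the factor itself induces, differed by 1.16 without overlap (edgeR adjusted p = 0.382). In contrast, Nfkbiz, Tnfaip3 and Zc3h12a of the same list had log2 fold changes of -0.67, -0.33 and -0.16. The chemokine genes Cxcl1 and Ccl2 overlapped between the ages (edgeR unadjusted p = 0.507 and 0.232). Icam1, an adhesion molecule of endothelium, was called by edgeR without aged replicate 2 (log2 fold change 1.70, adjusted p = 0.0437). Most of these genes also respond to other cytokines.

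**Figure D4:**
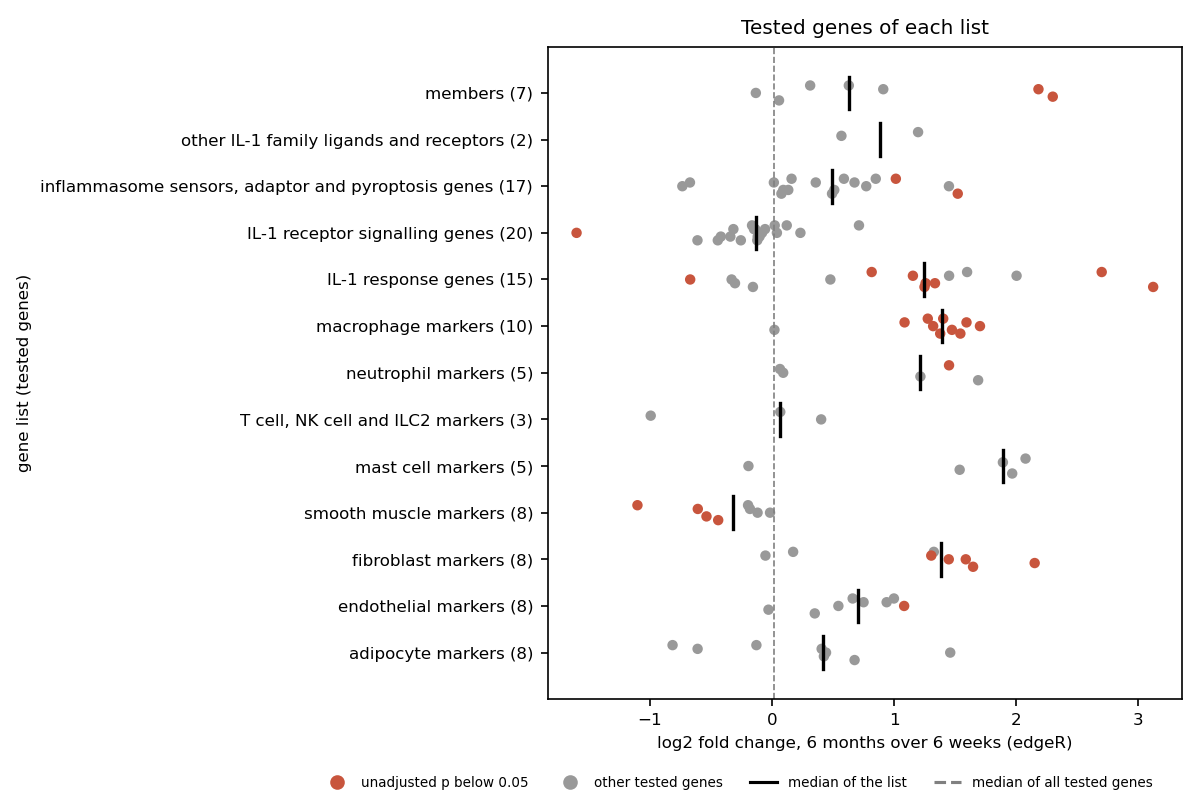
Log2 fold change of 6 months over 6 weeks (edgeR) of each tested gene, by list, with the number tested in brackets; red points have an unadjusted p below 0.05, black bars are list medians and the dashed line is the median of all tested genes (0.02). The members have a median of 0.63, beside 1.25 for IL-1 response genes, 1.39 for both macrophage and fibroblast markers, -0.13 for signalling genes and -0.32 for smooth muscle markers.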

How the data were processed

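RNA-seq of aorta gave 3 libraries at 6 weeks and 3 at 6 months, single-ended. The authors deposited raw counts of reads per gene and FPKM, which divide counts by gene length and by the reads of each library. The labels' processing notes list mm10, and the aligner, the counting tool, strandedness and the annotation are not given in the sources used here. Positions are from GENCODE M21 (GRCm38). Counts were analysed in R 4.3.3 with edgeR 4.0.16 (low counts removed by filterByExpr with a minimum of 10 and a total of 15, TMM, quasi-likelihood test without covariates, Benjamini-Hochberg over all genes tested, threshold 0.05). The same steps were run on simulated counts of independent genes. These held no library that stood apart from its group, so they do not check the test for the doubted libraries. Intervals are 95%. Contrasts of log2 CPM used a prior count of 2, with 0.5 as an alternative, and exact permutation. Alternatives were RLE, no filter, at least 10 counts in every library, a replicate block, leaving out libraries, DESeq2 1.42.0, and limma 3.58.1 on log2(FPKM + 1) or log2(FPKM + 0.1). Named are the 10 members and, per pathway list, up to 3 tested genes of lowest p; Pycard, Myd88 and Il1r2 and others were added after their values were seen. The members and lists were chosen with earlier results of these data known. FPKM were proportional to counts for the better counted members (SD at most 0.032 on the log2 scale).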

Additional observations from a re-analysis of the deposited data

How the results depend on the processing

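The number of genes called was 0 in the main fit and 0 to 110 when each library was left out in turn, the 110 being without aged replicate 2, and it was 338 with DESeq2. The members called were 0 in the main fit, 0 to 1 with a library left out and 1 with DESeq2, in each case Il33. Members at an unadjusted p below 0.05 numbered 2 in the main fit and 1 to 3 with a library left out (1 without aged replicate 3). They were 1 with at least 10 counts in every library, 1 without both young replicate 1 and aged replicate 2, and 1 with limma on log2(FPKM + 1). Pathway genes at that level numbered 11, and 9 to 17 with a library left out, the 17 being without aged replicate 2. The difference of Il33 and Il1rl1 was -1.002, was -2.41 with a prior count of 0.5, and turned to 1.03 with log2(FPKM + 0.1). It lay between -1.55 and -0.22 with a library left out. That of Il1b and Il1rn lay between 0.99 and 3.43, and that of Il18 and Il18bp between 0.75 and 1.68. The log2 fold change of Il1r1 turned to -0.026 without young replicate 2 and -0.076 without aged replicate 2 (range -0.076 to 0.19 with a library left out), and to -0.0095 without both doubted libraries, and -0.15 and -0.17 with limma on log2 FPKM with a pseudocount of 1 and 0.1. With a library left out, that of Il18bp lay between -0.24 and 0.0014 (without young replicate 3), that of Sigirr between -0.083 (without aged replicate 3) and 0.99, and the difference in CPM of Il1rn between -0.17 and 0.047 (without young replicate 2). The limma fits also moved the median of all genes to -0.12 and -0.19, so that Il33 stood further from it than its own change of 1.46 and 1.65 shows. The limma fits took FPKM without TMM factors, which were 1.06, 1.09 and 1.11 in young and 0.943, 0.936 and 0.886 in aged replicates 1, 2 and 3. The cause of the changes between fits was not tested.

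With the replicate number as a block, 0 genes were called, 2 members and 11 pathway genes had an unadjusted p below 0.05, and Il33 changed by 1.95 (edgeR adjusted p = 0.444). Deviations of libraries with the same number correlated at 0.0786, 0.117 and 0.0957, too little to take the numbers as pairs, although each library correlated best with its own number. Values of 0 to 40 counts limit what can be said of Il1b, Il1rn, Il1rl1 and Nlrp3.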
